A study of Mus musculus with 12 samples.

Results

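The genes described here make NAD+ or turn it into NADP+. They were chosen by name and comprised Nampt and Nmrk1 (salvage from nicotinamide and nicotinamide riboside), Nmnat1, Nmnat2 and Nmnat3 (the step that forms the dinucleotide), Naprt and Nadsyn1 (the Preiss-Handler route from nicotinic acid), Qprt (the entry from the de novo route) and Nadk and Nadk2 (the NAD kinases). All 10 were found among the 55401 genes of both deposited tables, each under 1 gene identifier. The cells were adult neural stem/progenitor cells (aNSPCs) grown in culture from the forebrain of C57BL/6 mice aged 8 to 10 weeks, which divide in medium with EGF and FGF-2 and can form neurons and astrocytes upon differentiation. RNA was sequenced from proliferating cells without NAD+ (Ctrl) and with NAD+, and from cells under differentiation conditions, likewise without and with NAD+. Per the study's methods, NAD+ was given at 1 mM and differentiation was induced with 1 µM retinoic acid and 5 µM forskolin, so both differentiation groups carry these agents. Each of the 4 groups had 3 samples. A treatment field of the labels calls all 12 samples untreated, and the groups follow the sample titles. The labels do not say whether samples of one group came from separate mice or cultures, so p-values measure only the spread between these samples.

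Cells rebuild NAD+ mainly from nicotinamide, which NAMPT joins to phosphoribose to give nicotinamide mononucleotide, and NMRK1 makes the same product from nicotinamide riboside. NMNAT enzymes then add the adenylate part, with NMNAT1 found in the nucleus, NMNAT2 at the Golgi and in the cytosol and axons, and NMNAT3 in mitochondria. The same enzymes serve the Preiss-Handler and de novo routes, in which NADSYN1 converts the acid form to NAD+. NAD kinases phosphorylate NAD+ to NADP+, NADK in the cytosol and NADK2 in mitochondria. In the nervous system NMNAT2 is best known as a factor that keeps axons intact.

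Nmnat2 was the member that passed the test under NAD+ exposure, so the sequence before its start is shown beside that of its paralog Nmnat1, which did not. Both stretches end before every annotated start in RefSeq and GENCODE, are written 5′ to 3′ on the strand of the gene, and come from RefSeq promoter windows on GRCm38.p6. The Nmnat2 stretch is chr1:152954851-152954992 (plus strand, 142 bases), and the Nmnat1 stretch is chr4:149485211-149485460 (minus strand, 250 bases). Capitals mark TGACG on either strand (TGACG or CGTCA), the core letters of sites of the cyclic AMP response element kind.
Nmnat2: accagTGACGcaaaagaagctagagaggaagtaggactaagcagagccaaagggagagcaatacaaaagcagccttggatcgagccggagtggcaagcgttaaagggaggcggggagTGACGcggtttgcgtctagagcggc
Nmnat1: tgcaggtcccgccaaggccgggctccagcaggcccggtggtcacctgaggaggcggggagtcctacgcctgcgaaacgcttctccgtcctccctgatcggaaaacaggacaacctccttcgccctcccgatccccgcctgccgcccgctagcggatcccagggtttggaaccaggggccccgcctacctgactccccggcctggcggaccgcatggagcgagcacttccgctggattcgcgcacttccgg
The letters occurred 2 times in the Nmnat2 stretch, starting 245 and 133 bases before the RefSeq start, and 0 times in the Nmnat1 stretch. Of the other members with a window, Nampt and Nadsyn1, which were not called under NAD+ exposure, each held 1 match in the whole window. Among 32851 RefSeq promoter windows, 7.87% held at least 1 match in the same 142 positions and 0.828% held 2 or more, while 17.8% held at least 1 match in the full 250 bases. The letters were chosen with the expression values known, and a match in a window is a description, not a binding site. The full element TGACGTCA was in none of the windows of the 8 members that had a RefSeq entry, against 1.55% of all windows.

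The values are FPKM (fragments divided by transcript length and by the mapped fragments of the library), which allows levels to be compared between genes. They were deposited rounded to 0.01 and hold no counts, so sequencing depth is unknown here. The summed FPKM of a sample lay between 308828 and 363330. Proliferating Ctrl replicate 1 stood apart with the highest sum (363330, against 308828 to 314683 in the other 5 proliferating samples) and the lowest summed FPKM of the dividing-cell markers Mki67, Top2a and Ccnb1 (79.7, against 100.5 to 128.5). The defining markers fitted the labels in part: Nes and Sox2 were present in every group (mean FPKM 68.8 and 224.8 in proliferating Ctrl, 9.92 and 146.9 in differentiation Ctrl), and microglia and endothelial markers summed to at most 0.39 and 0.19 FPKM. Oligodendrocyte lineage markers, however, summed to 1000.01 to 1362 FPKM in proliferating samples and 325.3 to 448.02 FPKM under differentiation conditions. The ependymal markers Foxj1 and Rsph1 were present too. They summed to 9.32 to 11.29 FPKM in proliferating Ctrl and 9.92 to 10.71 with NAD+. Under differentiation conditions the sums were 27.68 to 30.96 FPKM in Ctrl and 24.49 to 29.47 with NAD+. In bulk samples, fewer cells of a type and less RNA per cell cannot be told apart.

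Nadk2 and Nadk had the highest levels of the members in proliferating Ctrl cells, with mean FPKM of 24.1 ± 2.73 and 20.7 ± 3.12 (SD, n = 3), and their samples overlapped. Nampt (11.5 ± 0.961 FPKM), Nmnat2 (8.90 ± 0.518) and Nmnat1 (3.53 ± 0.122) followed, with no overlap between neighbours. Nadsyn1 (1.90 ± 0.207) and Nmrk1 (1.38 ± 0.167) were lower still. The lowest members above 0.1 FPKM were Naprt (0.553 ± 0.0603) and Nmnat3 (0.510 ± 0.161), whose samples overlapped. Qprt, the enzyme that brings quinolinate into the pathway, was listed at 0 in 10 of 12 samples and at 0.02 FPKM in the other two, so it was not tested. The de novo route before it was also at a low level: of its 8 listed genes, Ido1 was listed at 0 in every sample, and the highest was Afmid (kynurenine formamidase), with group means of 0.397 to 0.760 FPKM.

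The order changed in the other groups. With NAD+, proliferating cells had Nadk (26.5 ± 7.65 FPKM) above Nadk2 (18.6 ± 2.65) with no overlap. The 2 genes almost touched, however, at 21.84 and 21.60 FPKM in replicate 1, and Nadk was highest in replicate 2 (35.34). Under differentiation conditions Nmnat2 stood above Nampt, in Ctrl (11.1 ± 0.504 against 5.57 ± 0.452 FPKM) and with NAD+ (17.1 ± 1.23 against 4.98 ± 0.436), with no overlap between the 2 genes in either group, whereas Nampt was the higher of the pair in proliferating Ctrl. In differentiated cells with NAD+, Nmnat2 came second only to Nadk2 (25.8 ± 1.13 FPKM) and its samples overlapped those of Nadk (12.05 ± 4.03). The plot of the members' values by sample shows these levels.

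**Figure D1:**
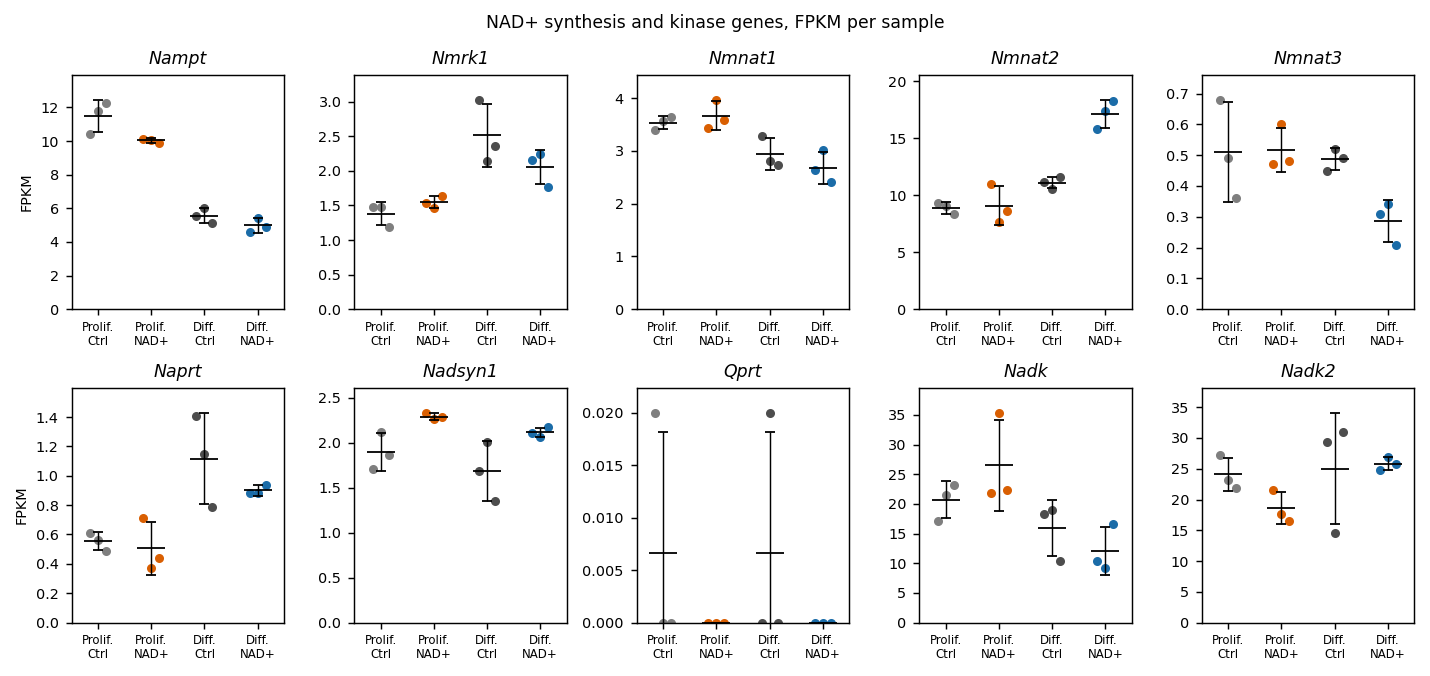
FPKM (vertical axes, each from 0 and on its own scale) of the 10 members in the 12 samples, by group; points are samples, in replicate order from left to right, and bars are the mean ± SD of 3 samples (cut at 0 for Qprt). The 3 Nmnat2 samples of the differentiation NAD+ group, at 15.81 to 18.24, lie above all others, and the Nampt samples under differentiation conditions, at 4.59 to 6.04, lie below all proliferating samples.

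To ask whether added NAD+ changes the expression of the genes that make it, NAD+ and Ctrl samples were compared within each condition. All genes averaging 0.1 FPKM or more in a condition entered a limma fit of log2(FPKM + 0.1), in which changes of low genes are understated, and a gene was called when its Benjamini-Hochberg adjusted p over all tested genes was under 0.05. Of the 9 members tested, 0 were called under proliferating conditions by limma (0.145% of 18597 tested genes were), and 1 had an unadjusted p under 0.05 (15.4% of all tested genes). The NAD+ and Ctrl samples did not overlap for 3 of the 9 members (24.1% of all tested genes). The median log2 fold change was 0.04 over the members and 0.07 over all tested genes.

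In proliferating cells the member with the smallest p was Nadk2 (mitochondrial NAD kinase, ENSMUSG00000022253, chr15:9071260-9110891). Its FPKM was 27.16, 23.14 and 21.95 in Ctrl and 21.60, 17.62 and 16.57 in the NAD+ group. All NAD+ samples were lower than all Ctrl samples, though the nearest samples of the groups almost touched. Within each group the values fell from replicate 1 to replicate 3, and the fit did not pair samples by number. The log2 fold change was -0.37 (95% interval -0.69 to -0.06, limma p = 0.0256), which did not pass after adjustment (adjusted p = 0.264), and the exact two-sided permutation p was 0.10, the smallest that 3 samples against 3 allow. Nampt (ENSMUSG00000020572, chr12:32819545-32853349) had 10.43, 11.78 and 12.29 FPKM in Ctrl and 10.15, 10.07 and 9.90 with NAD+, a log2 fold change of -0.19 (95% interval -0.41 to 0.03, adjusted p = 0.374). Its NAD+ samples were all lower than the Ctrl samples and closer together. Nadsyn1 (ENSMUSG00000031090, chr7:143795584-143822849) lay the other way, at 1.71, 2.12 and 1.86 FPKM in Ctrl and 2.33, 2.26 and 2.28 with NAD+ (log2 fold change 0.26, 95% interval -0.06 to 0.59, adjusted p = 0.398). The groups did not overlap, yet none of these differences passed the test.

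Nadk (cytosolic NAD kinase, ENSMUSG00000029063, chr4:155562378-155591001) had 17.20, 21.59 and 23.24 FPKM in Ctrl and 21.84, 35.34 and 22.37 with NAD+. A single NAD+ sample, replicate 2, was far above the rest and the groups overlapped (log2 fold change 0.33, 95% interval -0.17 to 0.83). The intervals of the other members all held 0: they ran from -0.33 to 0.36 for Nmnat2, from -0.21 to 0.31 for Nmnat1 and from -0.22 to 0.53 for Nmrk1, and were wider for the low genes Nmnat3 (-0.59 to 0.67) and Naprt (-0.78 to 0.49).

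Under differentiation conditions Nmnat2 rose with NAD+ exposure, and it was 1 of 9 tested members called (6.92% of 19611 tested genes were called, 2.27% as higher). Nmnat2 (ENSMUSG00000042751, chr1:152954993-153119261) had 11.18, 10.57 and 11.57 FPKM in Ctrl and 15.81, 17.39 and 18.24 with NAD+. Every NAD+ sample was above every Ctrl sample, with a gap larger than the range of either group. The mean was 1.54-fold higher, with a log2 fold change of 0.62 (standard error 0.07, 95% interval 0.45 to 0.79, limma adjusted p = 0.00891), while the median over all tested genes was -0.08. The exact two-sided permutation p was 0.10, the smallest possible. It was called in each limma fit tried, with log2 fold changes of 0.57 to 0.70, but its ratio of means stayed under the 2-fold that the study asked of differentially expressed genes. By that rule (ratio over 2 and an unadjusted p under 0.05) 0 of the 9 members and 4.05% of all tested genes qualified in the limma fit.

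The other NMNAT genes did not pass the test. Nmnat3 (ENSMUSG00000032456, chr9:98287435-98420438) had 0.45, 0.52 and 0.49 FPKM in Ctrl and 0.31, 0.34 and 0.21 with NAD+. All NAD+ samples were lower, at levels where the rounding to 0.01 is a visible share of the value (log2 fold change -0.62, 95% interval -1.15 to -0.08, limma adjusted p = 0.158). Nmnat1 (ENSMUSG00000028992, chr4:149467572-149485202) had 3.29, 2.80 and 2.73 FPKM in Ctrl and 2.63, 3.01 and 2.41 with NAD+, and the groups overlapped (log2 fold change -0.13, 95% interval -0.42 to 0.17, adjusted p = 0.577).

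Because FPKM is scaled to length, the 3 NMNAT genes can be added within a sample. Nmnat2 made up 74.9%, 76.1% and 78.2% of their summed FPKM in differentiation Ctrl samples and 84.3%, 83.8% and 87.4% in NAD+ samples. The share in every NAD+ sample exceeded that in every Ctrl sample, and the sum itself went from 14.5 ± 0.561 to 20.1 ± 1.19 FPKM (SD, n = 3). In proliferating samples the share was 67.5% to 69.5% in Ctrl and 62.6% to 73.7% with NAD+, which overlapped.

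**Figure D2:**
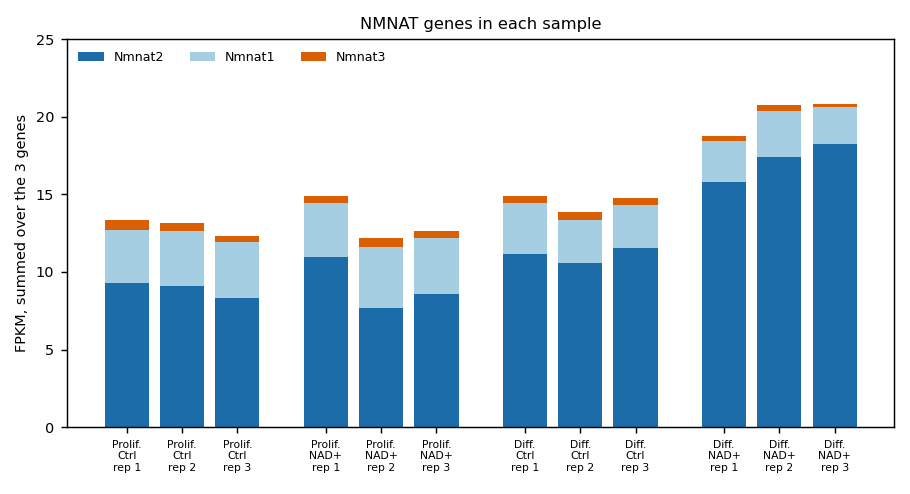
FPKM of Nmnat2, Nmnat1 and Nmnat3 (vertical axis, stacked from 0) in each of the 12 samples (horizontal axis, by group and replicate). The sum is 18.75 to 20.86 in the differentiation NAD+ samples and at most 14.92 in the other 9, and the Nmnat2 segment, at 15.81 to 18.24, is the one that is taller there.

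Markers of other cell states moved between the same samples. Over all tested genes 2.27% were called higher and 4.65% lower, and 24.2% had an unadjusted p under 0.05. Of 6 astrocyte markers, 3 rose with NAD+ under differentiation conditions (Gfap, Slc1a2 and Slc1a3, the last not without Ctrl replicate 1, adjusted p = 0.0552) and 1 fell (Aldoc), and their summed FPKM was 1361 to 1537 in Ctrl and 1850 to 1875 with NAD+. Gfap, the astrocyte filament protein, went from 595 ± 48.1 to 977 ± 18.8 FPKM (log2 fold change 0.72, limma adjusted p = 0.00613). Of 7 newborn neuron markers, 0 were called by limma, 0 had an unadjusted p under 0.05, and their sums overlapped (31.79 to 37.40 FPKM in Ctrl, 32.65 to 33.33 with NAD+). The summed level of the oligodendrocyte lineage markers was 433 to 448.02 FPKM in Ctrl and 325.3 to 360.7 with NAD+, without overlap. Among stem/progenitor markers Vim rose and Msi1 fell. The calls of Slc1a2, Aldoc and Msi1 were lost without any one of the 6 samples, and that of Vim without any one but Ctrl replicate 1 (adjusted p over these, 0.0511 to 0.124). The part of these shifts in the level of Nmnat2 was not tested.

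The remaining members did not pass the test for NAD+ against Ctrl under differentiation conditions. Nadsyn1 had 1.69, 2.01 and 1.35 FPKM in Ctrl and 2.11, 2.06 and 2.17 with NAD+ (log2 fold change 0.33, 95% interval -0.04 to 0.70, adjusted p = 0.258). As in proliferating cells, its NAD+ samples were all above Ctrl without passing the test. In all, 3 of the 9 members did not overlap between the groups (30.7% of all tested genes), and 2 had an unadjusted p under 0.05 (24.2% of all tested genes). Nampt had 5.52, 6.04 and 5.14 FPKM in Ctrl and 4.59, 5.45 and 4.90 with NAD+ (log2 fold change -0.16, 95% interval -0.39 to 0.08). Those groups overlapped, as did those of Nmrk1 (-0.27, 95% interval -0.66 to 0.12) and Naprt (-0.25, 95% interval -0.77 to 0.27).

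The NAD kinases varied widely among the replicates of some groups. Nadk had 18.32, 18.96 and 10.46 FPKM in differentiation Ctrl samples and 10.36, 9.13 and 16.65 with NAD+. Replicate 3 of each group sat with the other group, so the log2 fold change of -0.40 had an interval from -1.12 to 0.33 (adjusted p = 0.475). Nadk2 had 29.42, 14.60 and 31.02 FPKM in Ctrl and 24.72, 26.97 and 25.84 with NAD+. Its Ctrl replicate 2 was the lowest value by far, and the log2 fold change was 0.12 (95% interval -0.55 to 0.79), or -0.23 without that sample, in neither case past the threshold.

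**Figure D3:**
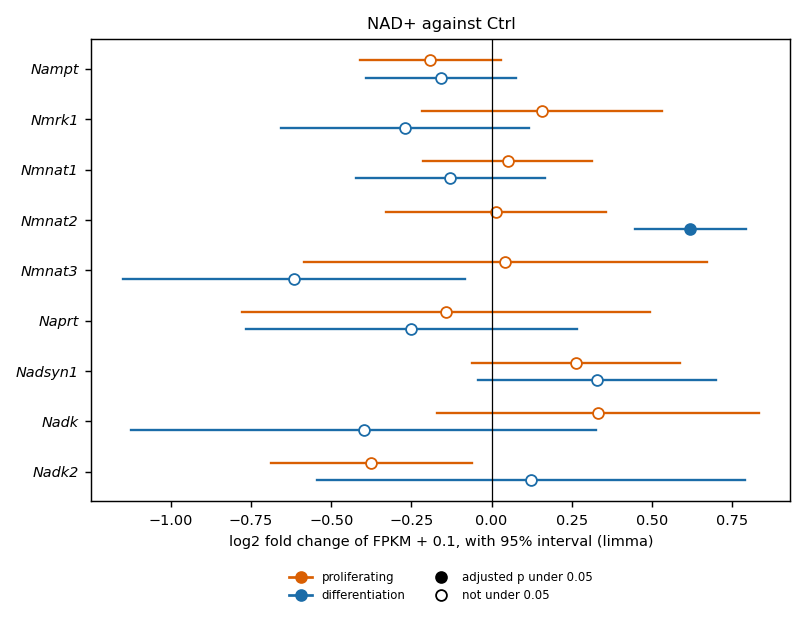
Log2 fold change of NAD+ against Ctrl (horizontal axis, on FPKM + 0.1) with 95% intervals for the 9 tested members, under proliferating (orange) and differentiation (blue) conditions; filled points have a limma adjusted p under 0.05. Nmnat2 under differentiation conditions, at 0.62, is the filled point, and its proliferating value is 0.01.

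Whether the effect of NAD+ differed between proliferating and differentiation conditions was tested in a fit of all 12 samples. Of the 9 tested members, 0 were called by limma (0.467% of 19498 tested genes were) and 1 had an unadjusted p under 0.05 (15.5% of all tested genes). The difference for Nmnat2 was 0.61 (95% interval 0.24 to 0.98, limma adjusted p = 0.135). Without proliferating NAD+ replicate 1, the highest of its group at 10.98 FPKM, the difference was 0.75 and passed the test (adjusted p = 0.0348). With all 12 samples, the effect on Nmnat2 was thus not shown to differ between the conditions. Nadk (-0.73, 95% interval -1.62 to 0.16) and Nmnat3 (-0.66, -1.38 to 0.07) had differences of larger size than Nmnat2, and Nadk2 followed (0.50, -0.24 to 1.23), but each of these intervals held 0. The median difference was -0.16 over all tested genes and moved by 0.14 under another scaling.

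Differentiation and proliferating cells were compared to ask how these genes differ between the states. The conditions were deposited in separate tables, and whether these were normalized together is not stated, so levels set across them rest on FPKM being comparable between tables. These comparisons share samples with those of NAD+ against Ctrl. Of all tested genes, 25% were called higher and 31.6% lower without NAD+, and 20.8% and 37.6% with NAD+. The median log2 fold change over all tested genes was -0.06 without NAD+ and -0.20 with NAD+, and median-ratio scaling moved it by 0.11 and 0.25. Dividing-cell markers fell in both comparisons (3 of 3, median log2 fold change -5.55 without and -6.14 with NAD+), and of 6 astrocyte markers 4 rose and 2 fell in each. Those that fell were Aldoc (log2 fold change -0.69 without and -0.75 with NAD+) and S100b (-0.78 and -0.45), of which S100b was not called under quantile normalization without NAD+ (adjusted p = 0.0681) and under either scaling with NAD+, where quantile normalization turned its direction (0.03). The part of these markers in the members' values was not tested.

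Nampt, the rate-limiting enzyme of salvage, fell upon differentiation, from 10.43, 11.78 and 12.29 FPKM to 5.52, 6.04 and 5.14 in Ctrl cells. The samples lay far apart, with the lowest proliferating value well above the highest under differentiation conditions. The log2 fold change was -1.03 (standard error 0.09, limma adjusted p = 3.81e-06), or -0.97 relative to the median of all tested genes. With NAD+ in both states it went from 10.15, 10.07 and 9.90 FPKM to 4.59, 5.45 and 4.90 (log2 fold change -1.001, adjusted p = 3.88e-06), or -0.80 relative to the median. Nampt was called in every fit tried, with log2 fold changes of -1.10 to -0.83 without NAD+ and -1.07 to -0.65 with NAD+.

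Nmrk1, the riboside kinase (ENSMUSG00000037847, chr19:18631950-18652428), lay higher under differentiation conditions. In Ctrl cells it rose from 1.48, 1.48 and 1.19 FPKM to 3.03, 2.15 and 2.36 (log2 fold change 0.81, standard error 0.16, limma adjusted p = 0.00104). All samples under differentiation conditions exceeded all proliferating samples. With NAD+ it had 1.54, 1.47 and 1.64 FPKM in proliferating cells and 2.16, 2.24 and 1.77 upon differentiation, without overlap but also without passing the test (log2 fold change 0.38, adjusted p = 0.0553). It did pass under median-ratio scaling (0.65, adjusted p = 0.00383) and quantile normalization (0.55, adjusted p = 0.0105), and without differentiation NAD+ replicate 3 (0.48, adjusted p = 0.0351) or differentiation Ctrl replicate 1 (adjusted p = 0.0395).

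Naprt, the first enzyme of the Preiss-Handler route (ENSMUSG00000022574, chr15:75890956-75894481), rose in Ctrl cells from 0.61, 0.56 and 0.49 FPKM to 1.41, 1.15 and 0.79 (log2 fold change 0.87, standard error 0.24, limma adjusted p = 0.00996). With NAD+ it rose from 0.71, 0.37 and 0.44 FPKM to 0.88, 0.88 and 0.94 (log2 fold change 0.76, adjusted p = 0.0189). The states did not overlap in either case, but the second call was lost without proliferating NAD+ replicate 2 (adjusted p = 0.0777) or 3 (0.0603) or differentiation NAD+ replicate 3 (0.0524). Naprt shares 277 exonic bases with Eef1d on the same strand, and Eef1d, a translation elongation factor subunit with group means of 10.45 to 12.6 FPKM, had log2 fold changes of -0.01 and -0.27 in these comparisons (limma adjusted p = 0.966 and 0.0458).

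Nmnat2 also stood higher upon differentiation. In Ctrl cells it rose from 9.29, 9.09 and 8.31 FPKM to 11.18, 10.57 and 11.57 (log2 fold change 0.32, standard error 0.12, limma adjusted p = 0.0394). The samples did not overlap, but the call was close to the threshold and was lost without any one of the 3 differentiation Ctrl samples (adjusted p = 0.0864, 0.0535 and 0.108), without proliferating Ctrl replicate 2 or 3 (0.0644 and 0.120), and without proliferating NAD+ replicate 3 (0.0502) or differentiation NAD+ replicate 2 (0.0518). The Ctrl call was also lost without the filter (limma adjusted p = 0.0571) or without the variance trend (0.0595). With NAD+ the rise was from 10.98, 7.65 and 8.60 FPKM to 15.81, 17.39 and 18.24 (log2 fold change 0.92, standard error 0.12, adjusted p = 4.63e-05), or 1.13 relative to the median. The call with NAD+ held in every fit tried, with log2 fold changes of 0.81 to 1.34.

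In Ctrl cells, then, 4 of the 9 tested members were called, 3 higher and 1 lower, against 56.7% of 19498 tested genes called in all (25% higher and 31.6% lower). In NAD+ cells 6 of 9 were called, 2 higher and 4 lower (58.4% of tested genes, 20.8% higher and 37.6% lower). Under median-ratio scaling the latter split became 4 higher and 2 lower, and likewise under quantile normalization. The groups did not overlap for 5 of the 9 members in Ctrl cells (61.7% of tested genes) and for 9 of 9 in NAD+ cells (66.3%).

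The further falls with NAD+ were in Nadk, Nmnat1 and Nmnat3. Nadk fell from 21.84, 35.34 and 22.37 FPKM to 10.36, 9.13 and 16.65 (log2 fold change -1.14, standard error 0.28, limma adjusted p = 0.0049). The lowest proliferating sample was still above the highest upon differentiation, and quantile normalization ended the call (-0.72, adjusted p = 0.0552). Nmnat1 fell from 3.44, 3.97 and 3.59 FPKM to 2.63, 3.01 and 2.41 (log2 fold change -0.44, adjusted p = 0.00604), a call that was lost under median-ratio scaling (-0.17, adjusted p = 0.204) and quantile normalization (-0.17, adjusted p = 0.186). Nmnat3 fell from 0.47, 0.60 and 0.48 FPKM to 0.31, 0.34 and 0.21 (log2 fold change -0.68, adjusted p = 0.0259). Its call was lost under median-ratio scaling (adjusted p = 0.123) and without the filter (0.0575). It was also lost without proliferating NAD+ replicate 2 (0.0901) or differentiation NAD+ replicate 3 (0.0979).

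In Ctrl cells their log2 fold changes were -0.41 for Nadk, -0.26 for Nmnat1 and -0.02 for Nmnat3, and none was called (Nmnat1 passed without differentiation Ctrl replicate 1, at -0.34 and an adjusted p of 0.0369). Nadk2 differed by -0.02 without NAD+ and by 0.48 with NAD+ and was not called, but it passed without differentiation Ctrl replicate 2 in both comparisons (0.33, adjusted p = 0.0441, and 0.48, adjusted p = 0.0037) and, with NAD+, under both scalings. Nadsyn1 differed by -0.17 and -0.11 and was not called in either.

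**Figure D4:**
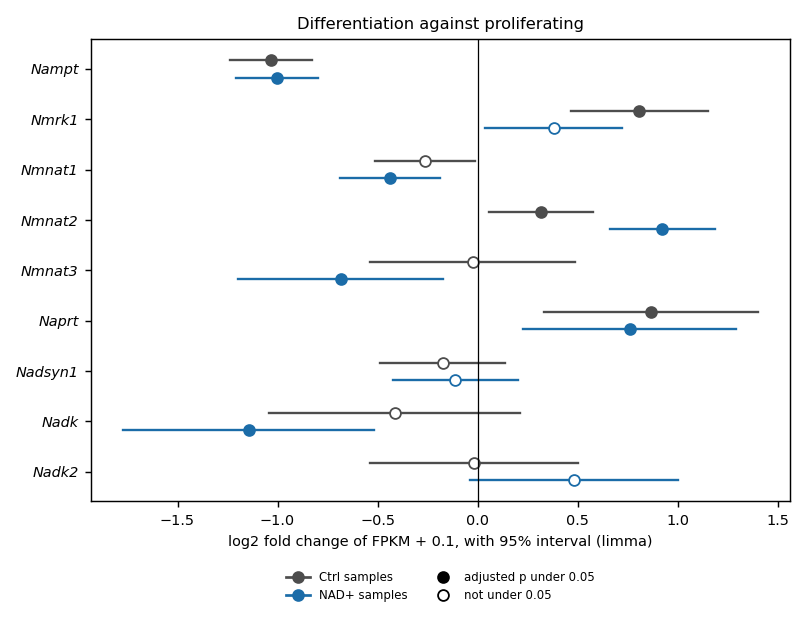
Log2 fold change of differentiation against proliferating cells (horizontal axis, on FPKM + 0.1) with 95% intervals for the 9 tested members, in Ctrl (grey) and NAD+ (blue) samples; filled points have a limma adjusted p under 0.05. Nampt lies at -1.03 and -1.001, and Nmnat2 at 0.32 and 0.92.

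Around the members, other genes of NAD+ metabolism were described in 5 lists. The list of NADPH producing enzymes was drawn broadly, and not all of its genes make NADPH or use NADP+ alone. In proliferating cells 0 genes of any list were called by limma with NAD+ exposure. Tested were 1 de novo gene, 13 genes of uptake and conversion outside the cell and 7 of clearance and repair. The other lists had 13 NAD+ consuming enzymes and 15 genes listed as NADPH producing enzymes. In that order, 0, 5, 1, 0 and 2 had an unadjusted p under 0.05, against 15.4% of all tested genes.

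Under differentiation conditions the broad list of NADPH producing enzymes had 5 of 15 tested genes lower with NAD+ and 0 higher (4.65% of all tested genes were called lower). The median log2 fold change of the list was -0.31, against -0.08 over all tested genes. Nnt, listed under 2 gene identifiers, was left out. Idh1, cytosolic isocitrate dehydrogenase, fell from 45.7 ± 1.63 to 32.6 ± 2.52 FPKM (log2 fold change -0.49, limma adjusted p = 0.0134). The folate enzymes Aldh1l1 (-0.61, adjusted p = 0.00494), Mthfd1 (-0.41, 0.0105) and Mthfd2 (-0.75, 0.0385) and the glutamate dehydrogenase Glud1 (-0.48, 0.00723) fell as well. Under median-ratio scaling Mthfd2 no longer passed (-0.67, adjusted p = 0.0579), and 4 genes were called. That call was also lost without any one of the 6 samples (adjusted p = 0.0617 to 0.110), that of Idh1 without Ctrl replicate 2 or 3 (0.0543 and 0.0555) and that of Mthfd1 without Ctrl replicate 1 (0.0517). Aldh1l1, which is also an astrocyte gene, was not called with all 12 samples in the fit (0.191). The enzymes of the pentose phosphate route, G6pdx (0.13), Pgd (0.02) and H6pd (0.03), were not called.

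Among the 13 NAD+ consuming enzymes 1 fell with NAD+ under differentiation conditions, the cytosolic deacylase Sirt2, which had 69.97, 69.20 and 85.24 FPKM in Ctrl and 35.63, 45.54 and 36.49 with NAD+. All NAD+ samples lay below all Ctrl samples (log2 fold change -0.93, limma adjusted p = 0.0123, or 0.0525 with all 12 samples in the fit). Sirt2 is abundant in oligodendrocytes, whose summed markers were also lower with NAD+ in these samples, as given above. The part of that shift was not tested. Parp1 (-0.28, adjusted p = 0.0513) was not called. Of 8 tested clearance genes 1 rose, Aox3, an aldehyde oxidase, from 0.02, 0.03 and 0.03 FPKM to 0.26, 0.21 and 0.35 (log2 fold change 1.54, adjusted p = 0.032). Its Ctrl values are close to the smallest value above 0 that the tables hold, and the call was lost without any one of the 6 samples (adjusted p = 0.0691 to 0.113). The 12 tested uptake genes and the 2 tested de novo genes had 0 calls by limma, and 3 and 0 of them had an unadjusted p under 0.05. Over all tested genes 4.65% were called lower, 2.27% were called higher and 24.2% had an unadjusted p under 0.05.

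**Figure D5:**
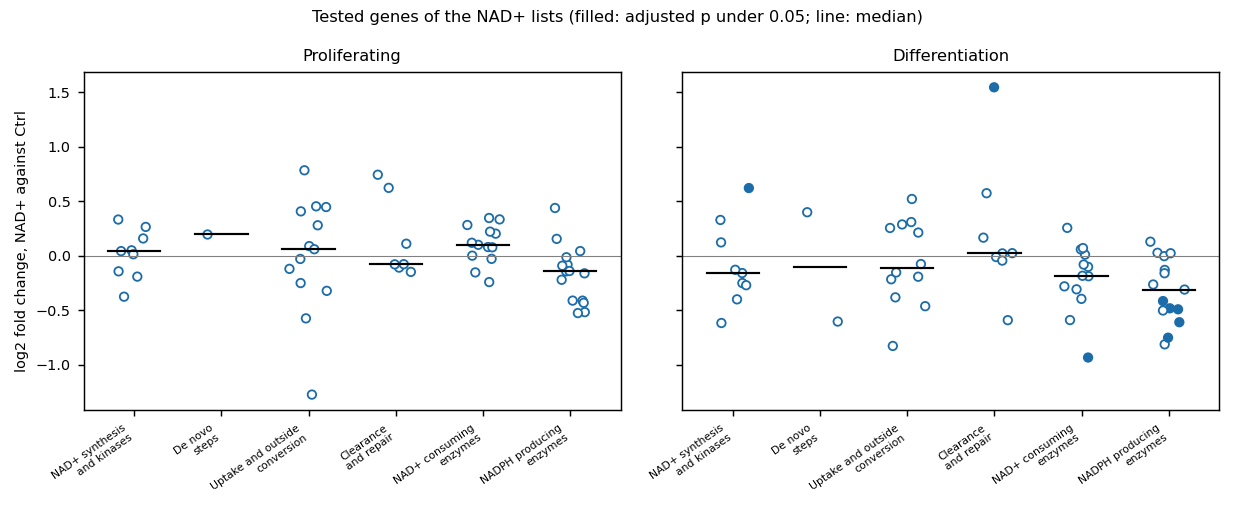
Log2 fold change of NAD+ against Ctrl (vertical axis) for the tested genes of the members and the 5 lists (horizontal axis), under proliferating (left) and differentiation (right) conditions; filled points have a limma adjusted p under 0.05 and lines are list medians. No point is filled in proliferating cells, and 5 of 15 genes listed as NADPH producing enzymes are filled and below 0 upon differentiation. The difference between the conditions was called for 0 of these 15 genes (0.467% of 19498 tested genes).

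Between the states, the list genes with the largest changes in Ctrl cells were Mthfd1l, a mitochondrial folate enzyme (log2 fold change -2.54), Cd38, an NAD+ hydrolase (2.34), Gja1, a connexin (1.83), Aox1 (1.69) and Sirt2 (1.61). In NAD+ cells they were Mthfd1l (-2.88), Gja1 (2.64), Mthfd2 (-2.12), Cd38 (2.08) and Aox1 (1.64). Each passed the test in every fit tried. Calls were common between the states: of all tested genes, 25% were higher and 31.6% lower in Ctrl cells, and 20.8% and 37.6% in NAD+ cells. The list counts below are to be read beside these shares. The list of NADPH producing enzymes had 9 of 15 genes lower and 2 higher in Ctrl cells. In NAD+ cells it had 9 lower and 1 higher, where median-ratio scaling gave 7 lower and 2 higher. NAD+ consuming enzymes had 5 higher and 3 lower of 13 in Ctrl cells, or 6 and 1 under median-ratio scaling, and 4 higher and 5 lower in NAD+ cells, or 6 and 3. Uptake genes had 3 higher and 3 lower of 12 in Ctrl cells and 4 and 4 in NAD+ cells, which median-ratio scaling turned into 5 and 1. Of 7 clearance genes 1 was higher and 2 lower in Ctrl cells, and 1 and 3 in NAD+ cells, or 3 and 1 under that scaling. De novo genes had 0 of 2 called by limma in both comparisons, with 0 at an unadjusted p under 0.05. Over all 19498 tested genes, 11924 had such a p in Ctrl cells and 12180 in NAD+ cells.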

How the data were processed

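RNA-seq of 12 samples in 4 groups was used. The authors aligned the reads with Hisat2 v2.0.5 (genome mm10), counted unique alignments with FeatureCounts v2.0.1 and deposited FPKM values, 1 table per condition. How FPKM was computed from the counts is not given in the sources used here. The tables also hold the authors' own fold changes and p-values per gene, which were not used; the number of sample columns left out was 0. FPKM values were rounded to 0.01, with no whole-read steps visible, so no counting error can be given.

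FPKM was taken without further scaling. Genes averaging 0.1 or more in the 6 samples compared (all 12 across conditions) were fitted with limma 3.58.1 in R 4.3.3 on log2(FPKM + 0.1), two-sided, with a variance trend and Benjamini-Hochberg adjustment over all tested genes. The code was tested on simulated data. Exact permutation tests used the difference of mean FPKM. Positions and exons come from GENCODE M21 (GRCm38, mm10), in which 55141 of 55401 gene IDs were found. RefSeq promoter windows matched 8 of 10 members. The 10 members, all named, and the lists were chosen with earlier results of these data known. From the lists, up to 5 called genes with the largest change per comparison were named, and further genes where counts were small. Motif letters, markers and Eef1d were singled out after the values were seen. For the 2 members with the largest spread over the samples, the 4 genes with the nearest pattern were named. Alternatives changed the added number (1 or 0.01), the filter, the scaling, the variance model, the replicate block and the samples. Figures were made with Python 3.11.15 and matplotlib 3.10.9. Single marker genes beyond those named are not reported here.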

Additional observations from a re-analysis of the deposited data

How the results depend on the processing

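Depth is unknown, so low members (Naprt, Nmnat3 and Qprt) are limited by rounding and by spread rather than by a known count. The number of members called under NAD+ exposure in proliferating cells was 0 in every fit, and under differentiation conditions it was 1 (Nmnat2) in every limma fit and without each sample in turn, but 0 under the study's rule of a 2-fold change and an unadjusted p under 0.05. For the difference of the NAD+ effect it ranged from 0 to 1 when samples were left out. Leaving out samples gave 3 to 4 members called in differentiation against proliferating Ctrl cells and 4 to 7 in NAD+ cells. Directions of members that were not called turned under median-ratio scaling and quantile normalization: in proliferating cells to -0.015 and -0.063 for Nmnat1, -0.052 and -0.056 for Nmnat2 and -0.013 (median-ratio) for Nmnat3. For the difference of the NAD+ effect they turned to 0.019 (quantile) for Nmnat1, and 0.021 and 0.0014 for Naprt. In differentiation against proliferating cells they turned to 0.082 (median-ratio) for Nmnat3 and 0.11 and 0.37 for Nadk2 without NAD+, and to 0.16 and 0.11 for Nadsyn1 with NAD+. The cause was not tested.

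Without each sample in turn, log2 fold changes ranged in proliferating cells from -0.0071 to 0.094 for Nmnat1, -0.13 to 0.13 for Nmnat2, -0.14 to 0.24 for Nmnat3 and -0.37 to 0.022 for Naprt, and under differentiation conditions from -0.23 to 0.32 for Nadk2. For the difference of the NAD+ effect they ranged from -0.033 to 0.10 for Nampt, -0.32 to 0.12 for Naprt and -0.077 to 0.19 for Nadsyn1, and for differentiation against proliferating Ctrl cells from -0.21 to 0.17 for Nmnat3 and -0.21 to 0.33 for Nadk2.

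Over all genes, the 27 calls in proliferating cells became 735 with all 12 samples in the fit, 75 with a minimum mean FPKM of 1, 60 under quantile normalization, 9 without a filter and 0 with the replicate block or without the variance trend in limma (3094 and 2706 at an unadjusted p under 0.05), and 0 to 36 without each sample. The 1357 calls under differentiation conditions became 758 with the block, 619 without the trend and 328 to 719 without each sample, and the share of higher calls went from 32.8% to 53.6% under median-ratio scaling and 49.96% under quantile normalization. The 91 calls for the difference became 139 with 1 added, 26 with the block, 56 without the trend and 12 to 195 without each sample. The share of higher calls there went from 47.3% to 74.2% and 69.2% under the scalings, and in differentiation against proliferating NAD+ cells from 35.6% to 50.8% and 48.4%.

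Samples that share a replicate number correlated around their group means across genes at 0.111, 0.0215 and 0.0529 in proliferating cells. Under differentiation conditions the values were 0.0410, 0.0432 and 0.0257. Samples with different numbers had -0.112 to 0.0734 and -0.0397 to -0.00249. Same-number values were thus small, though under differentiation conditions all lay above the others. The main fits did not pair the samples, and a replicate block was the alternative. With the replicate block, Nmnat2 under differentiation conditions kept its call, the call of Nmnat2 in differentiation against proliferating Ctrl cells was lost (adjusted p = 0.0518), and it changed no other call of a member. Of the list and marker genes named here that were called under NAD+ exposure, the block ended the calls of Aox3 (adjusted p = 0.0803), Slc1a2 (0.0519), Aldoc (0.0813) and Vim (0.0589). Leaving out the variance trend in limma ended those of Idh1 (adjusted p = 0.0535), Mthfd2 (0.0636), Slc1a3 (0.0567), Slc1a2 (0.130), Aldoc (0.119), Vim (0.0578) and Msi1 (0.0693). Without the filter, Mthfd2 (0.0637), Slc1a2 (0.0550) and Aldoc (0.0859) did not pass.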

Other observations

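Nadk and Nampt had the largest spread of log2 FPKM over the 12 samples among members with a mean FPKM of at least 1 (SD 0.56 and 0.55). The genes whose centred log2 values lay nearest to those of Nampt were 2510009E07Rik, Gng12, Hars and Gnb1, with root mean square differences of 0.07, 0.08, 0.08 and 0.08. All of them had lower means upon differentiation, as Gnb1, a G protein subunit, with 84.4 FPKM in proliferating Ctrl and 44.7 in differentiation Ctrl. The genes nearest to Nadk were Gm12112, Ankrd9, Slc19a2 and Tsen34, at 0.23, 0.23, 0.25 and 0.26. The points share the 2 states and the libraries, and no test was made.

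The summed FPKM of Nadk and Nadk2 varied less than either gene in proliferating Ctrl cells, at 44.36, 44.73 and 45.19, but not in proliferating NAD+ cells (43.44, 52.96 and 38.94). In differentiation Ctrl cells the share of Nadk in this sum was 38.4%, 56.5% and 25.2%. Nmnat1 and Nadk lie on chromosome 4 about 6.08 Mb apart, and no 2 members share exonic bases.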
